A study of Mus musculus with 15 samples.

Results

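Goblet cells are the mucus-secreting cells of the intestinal lining. Followed here were 10 genes of their products, secretory machinery and maturation, in the colon of mice fed heme, a pigment in red meat that carries iron. The genes are Muc2, Tff3, Clca1, Fcgbp, Zg16, Agr2, Spdef, Retnlb, Ang4 and Spink4, 10 of the 18194 genes that the array's annotation names through probe sets of 1 gene symbol. They were taken as every probe set whose annotation gives 1 symbol equal to a listed name, which found 15 probe sets. Male C57BL/6 mice, an inbred strain, were 11 weeks old and ate for 14 days a diet with 40% of its energy as fat and little calcium. Of the mice analysed here, 6 ate this diet without heme (control, mice 1, 2, 3, 4, 6 and 7) and 9 ate it with 0.5 umol of added heme in each g (the heme group, mice 1 to 9). The high-fat, low-calcium background was thus shared by both groups, and a normal diet was not compared. RNA of each mouse's colon scraping was measured on its own Affymetrix expression array, so each value below belongs to 1 mouse.

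Muc2 encodes the gel-forming mucin that builds the mucus layer of the colon, and Tff3, Clca1, Fcgbp and Zg16 are secreted with it. Agr2 is a protein disulfide isomerase of the endoplasmic reticulum needed to fold the mucin, and Spdef is a transcription factor of goblet cell maturation. Retnlb and Ang4 encode secreted antibacterial proteins, known as products induced in goblet and other secretory cells by microbes and by type 2 immune signals.

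Promoter sequence from RefSeq (GRCm38.p6), the 250 bases before the gene's start, was matched for 5 of the 10 genes: Muc2, Fcgbp, Agr2, Spdef and Ang4. The 3 shown first are those of the genes whose heme mice all lay below all controls (Ang4, Fcgbp and Muc2), and Agr2 is shown as a gene that was not called. Capitals mark 3 motifs searched on both strands and chosen after the sequences were seen: a TATA box (TATAAA or TATATA), a forkhead core (GTTTAC) and an E-box (CAGCTG). The windows are chr14:51773591-51773840 on the minus strand for Ang4, chr7:28070986-28071235 on the plus strand for Fcgbp, chr7:141690090-141690339 on the plus strand for Muc2 and chr12:35992675-35992924 on the plus strand for Agr2, each written 5′ to 3′ in the gene's direction.
Ang4: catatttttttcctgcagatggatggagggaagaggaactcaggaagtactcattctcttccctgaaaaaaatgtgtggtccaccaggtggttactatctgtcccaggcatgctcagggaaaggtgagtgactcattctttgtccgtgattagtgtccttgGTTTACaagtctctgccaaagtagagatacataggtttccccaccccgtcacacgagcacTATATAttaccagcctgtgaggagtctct
Fcgbp: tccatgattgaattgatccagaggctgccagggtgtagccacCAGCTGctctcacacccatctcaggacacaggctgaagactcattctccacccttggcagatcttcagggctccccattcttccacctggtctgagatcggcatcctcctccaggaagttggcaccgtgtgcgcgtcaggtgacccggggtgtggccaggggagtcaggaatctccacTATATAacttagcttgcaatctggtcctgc
Muc2: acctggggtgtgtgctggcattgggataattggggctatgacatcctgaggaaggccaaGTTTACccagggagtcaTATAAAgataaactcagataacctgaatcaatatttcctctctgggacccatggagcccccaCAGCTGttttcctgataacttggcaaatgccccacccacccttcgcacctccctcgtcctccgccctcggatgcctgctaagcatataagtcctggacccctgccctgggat
Agr2: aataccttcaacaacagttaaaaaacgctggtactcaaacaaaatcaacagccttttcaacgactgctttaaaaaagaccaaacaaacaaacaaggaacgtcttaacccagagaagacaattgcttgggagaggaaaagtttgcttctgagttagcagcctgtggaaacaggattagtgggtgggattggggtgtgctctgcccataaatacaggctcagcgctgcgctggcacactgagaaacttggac
The first base of the TATA box match lies 29 bases before the start of Ang4, 30 before that of Fcgbp and 174 before that of Muc2. Variants of these letters were not searched, so the tataag near the end of the Muc2 window is not marked. Ang4 also holds the forkhead core at 89 bases and Muc2 at 191 bases. The E-box stands at 208 bases in Fcgbp and at 112 bases in Muc2. No match overlapped another, and neither Agr2 nor Spdef held any of these letters in the window. Among 32851 mouse promoter windows of the same length, 15.6% held the TATA box, 6.92% the forkhead core and 13.0% the E-box. These matches describe letters and say nothing of binding.

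Expression is given as the deposited GCRMA values, taken as log2 from their range, since no header or label states the scale. On that scale 1 unit is a doubling of signal, and each fold below rests on it. Levels of different probe sets are not compared, since each probe set has its own response. All 10 genes lay above a signal of 20 (4.32 on the log2 scale) in all 15 mice. Several lay near the top of the scale, whose highest value per array ran from 14.63 to 14.80, so a change of these may be understated. Array medians ran from 3.11 to 3.24. The 3′ minus 5′ signal of Gapdh, a measure of RNA integrity, was -0.14 to 0.03 in controls and -0.15 to -0.05 in heme mice. That of Actb was higher, at 0.52 to 0.75 in controls and 0.41 to 0.66 in heme mice. Epithelial markers, 8 of 8 above the floor, had a mean level of 12.95 to 13.03 in controls and 12.86 to 13.02 in heme mice. Of these 8, 2 were called higher in heme mice (Krt19 by 0.16 and Vil1 by 0.18), beside 27.2% of all tested genes. Another 2 were called lower (Epcam at -0.20 and Elf3 at -0.29), beside 26.4%. Smooth muscle markers moved with diet: of 8 listed, 5 could be tested and 5 were lower in heme mice, with a mean level of 5.86 to 9.45 in controls and 4.52 to 6.36 in heme mice. Of 9 listed enteroendocrine genes 8 were tested and 5 fell, of 7 tuft cell genes 3 were tested and 3 fell, and of 8 proliferation genes 7 were tested and 7 rose. The part of these cell types in the results below was not tested. Control mouse 2 stood apart, with the highest smooth muscle mean (9.45) and the highest Dcn, a stromal gene (10.41). Control mouse 4 stood apart with a mean of 3.19 for distal Hox genes, which mark position along the colon, where the other 14 mice had 6.81 to 8.94. Heme mouse 6 stood apart with an interferon-induced gene, Gbp2, at 11.28.

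Of the 10 genes, 6 were lower and 1 was higher in heme mice at an adjusted p under 0.05, and 3 were not called. Over all 9257 tested genes 26.4% were lower, 27.2% were higher and 53.6% were called in either direction, so calls were common on this array set. The median log2 difference of the 10 genes was -0.19, and that of all tested genes was -0.01. Every heme mouse lay below every control for 3 of the 10 (Muc2, Fcgbp and Ang4), beside 8.93% of all tested genes, and no gene of the 10 had every heme mouse above every control, beside 11.2%. Counted over the 15 probe sets, 8 were lower and 2 higher, where 24.3% and 26.1% of 15717 probe sets were. In tissue scrapings, fewer goblet cells and less RNA per goblet cell cannot be told apart.

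**Figure D1:**
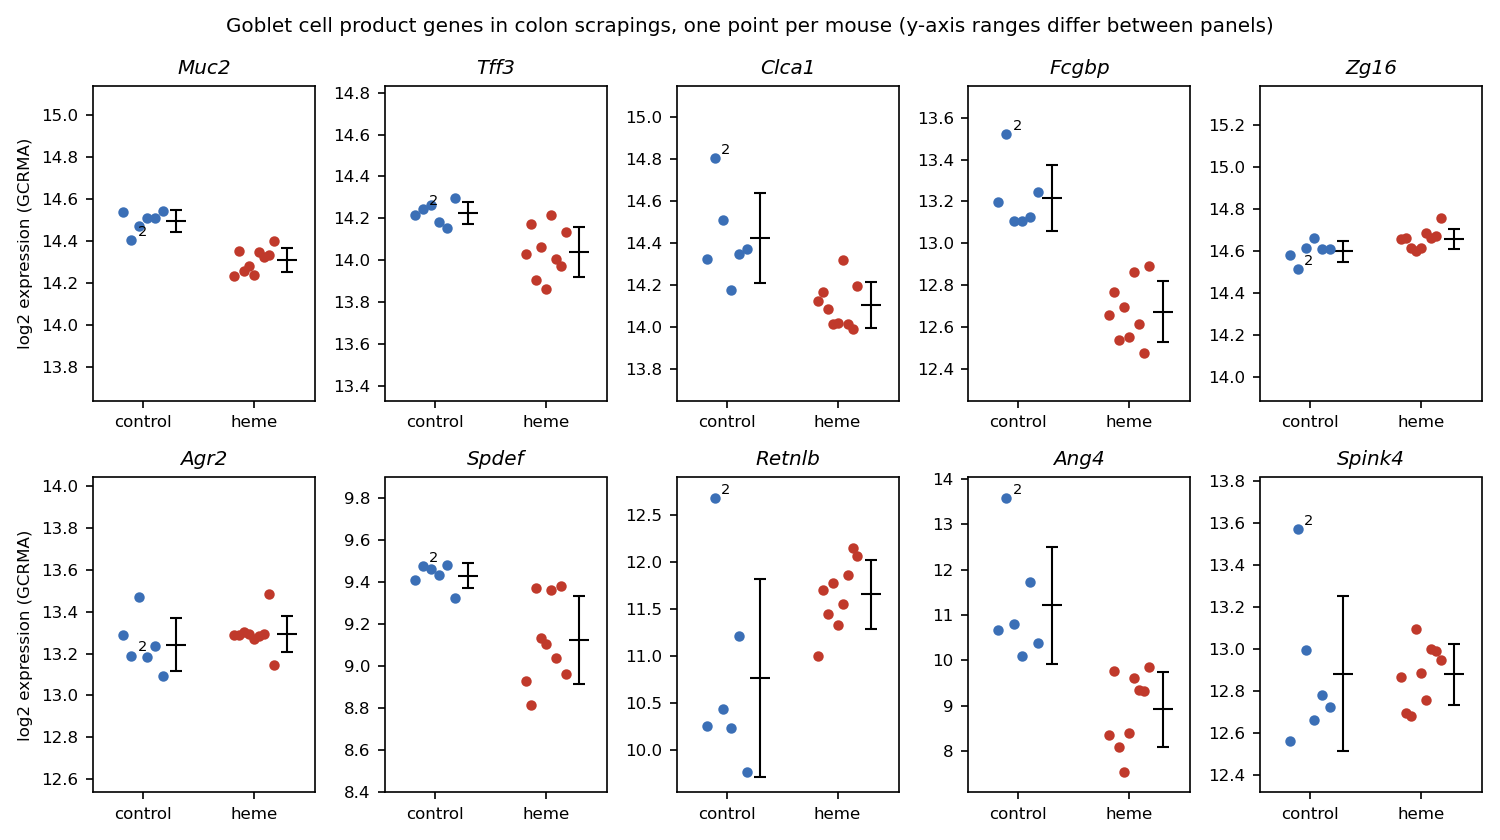
Expression of the 10 goblet cell genes (log2, GCRMA) in each control (blue, n = 6) and heme mouse (red, n = 9), with the mean and SD as black bars beside the points and control mouse 2 numbered. The groups do not overlap for Muc2, Fcgbp and Ang4, and control mouse 2 is the highest control for Clca1, Fcgbp, Retnlb, Ang4 and Spink4; the y-axis range differs between panels.

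Among the secreted mucus components, the mucin Muc2 was lower in heme mice by a small amount. Controls ranged from 14.40 to 14.54 with a median of 14.51, and heme mice from 14.23 to 14.40 with a median of 14.32. All 9 heme mice lay below all 6 controls, although heme mouse 9, the highest, and control mouse 2, the lowest, nearly met at 14.40. Muc2 fell by 0.19 on the log2 scale (SE 0.04, 95% interval -0.28 to -0.10, adjusted p = 0.00198), from 14.49 ± 0.05 (SD, n = 6) to 14.31 ± 0.06 (SD, n = 9), a 1.14-fold lower signal. With quantile normalization the difference was -0.10 and no longer called (adjusted p = 0.0539).

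The trefoil peptide Tff3, which is secreted with the mucin and aids repair of the lining, changed by a like amount. Its values were 14.16 to 14.30 in controls (median 14.23) and 13.86 to 14.22 in heme mice (median 14.03). Heme mice 2 and 6, at 14.18 and 14.22, lay inside the control range and the other 7 lay below it. The difference was -0.19 (SE 0.06, adjusted p = 0.0143). This call was lost with median centring (-0.14, adjusted p = 0.0654) and with quantile normalization (-0.13, adjusted p = 0.0637).

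Fcgbp, which encodes the IgG Fc binding protein, a large mucin-like component of mucus, was lower without overlap of the diets. Controls ran from 13.11 to 13.52 (median 13.16), and heme mice from 12.48 to 12.89 (median 12.66). No heme value reached the control range. Fcgbp fell by 0.54 (SE 0.08, 95% interval -0.71 to -0.37, adjusted p = 4.79e-05), a 1.46-fold lower signal, and it was called in all 26 alternatives tried, with differences from -0.57 to -0.41. Control mouse 2 was the highest control at 13.52, and without it the difference was -0.48.

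Clca1 encodes a secreted metalloprotease that processes the mucin. Its brighter probe set, 1416306_at, read 14.18 to 14.80 in controls (median 14.36) and 13.99 to 14.32 in heme mice (median 14.09). Heme mice 6 and 9, at 14.32 and 14.19, reached into the control range and the other 7 lay under it. The difference was -0.32 (SE 0.08, adjusted p = 0.00446). The second probe set, 1459889_at, read 6.97 to 10.05 in controls and 6.51 to 7.57 in heme mice, and 5 of the 9 heme mice lay below all controls. Its difference was -1.06 (SE 0.33, adjusted p = 0.0146 over the probe sets), a 2.09-fold lower signal. Control mouse 2 was the highest on each, and without it the second probe set's difference was -0.68. The probe sets therefore share a direction and differ in size, and with their mean standing for the gene the difference was -0.69.

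Zg16, a lectin-like mucus protein that binds Gram-positive bacteria, was not called as a gene. Probe set 1434137_x_at, which stands for it, read 14.51 to 14.66 in controls (median 14.61) and 14.60 to 14.76 in heme mice (median 14.66), with a difference of 0.06 (95% interval -0.03 to 0.15, adjusted p = 0.234). The groups overlapped, with 5 of 9 heme mice above all controls. Of the other probe sets, 1428358_at was higher by 0.12 (SE 0.05, adjusted p = 0.0431), with 14.02 to 14.18 in controls and 14.15 to 14.30 in heme mice, and 1428359_s_at differed by 0.02 (adjusted p = 0.665). The call of 1428358_at was lost in 11 of 18 alternatives. All 3 lie near the top of the scale.

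Spink4, named as a Kazal-type serine protease inhibitor, had nearly equal means of 12.88 ± 0.37 (SD, n = 6) and 12.88 ± 0.14 (SD, n = 9). Controls ran from 12.56 to 13.57 (median 12.75) and heme mice from 12.68 to 13.09 (median 12.88). The 95% interval of the difference was -0.27 to 0.27 (adjusted p = 0.985). Control mouse 2, at 13.57, was above every other mouse, and without it the difference was 0.14 (adjusted p = 0.187).

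The transcription factor Spdef and the isomerase Agr2 did not go together. Spdef was 9.32 to 9.48 in controls (median 9.44) and 8.81 to 9.38 in heme mice (median 9.10). Heme mice 3, 6 and 8, at 9.37, 9.36 and 9.38, lay within the control range and the other 6 lay below it. Spdef fell by 0.31 (SE 0.09, 95% interval -0.50 to -0.12, adjusted p = 0.00775), a 1.24-fold lower signal. The spread was wider in heme mice (SD 0.21) than in controls (SD 0.06), a difference not tested. Agr2 read 13.09 to 13.47 in controls (median 13.21) and 13.15 to 13.49 in heme mice (median 13.29) on 1419268_at, with a difference of 0.05 (95% interval -0.08 to 0.18, adjusted p = 0.493). Its second probe set, 1455802_x_at, gave 0.10 (95% interval -0.09 to 0.29, adjusted p = 0.382).

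**Figure D2:**
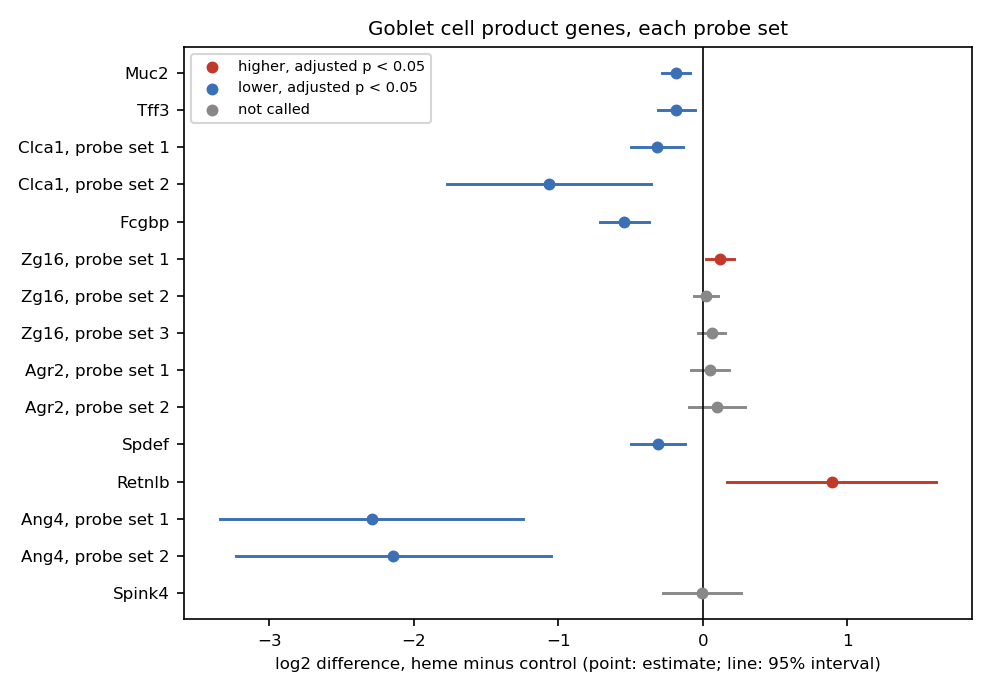
Log2 difference, heme minus control, of each of the 15 probe sets of the 10 genes, with the 95% interval of the fit as a line. Both Ang4 probe sets lie at -2.29 and -2.14, Retnlb lies at 0.89 with a wide interval, and the other genes lie nearer to 0, except the dimmer Clca1 probe set at -1.06.

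Ang4, an angiogenin-family ribonuclease that kills bacteria, had the largest difference of the 10 genes. On 1438364_x_at the controls 1, 2, 3, 4, 6 and 7 read 10.67, 13.58, 10.81, 10.09, 11.74 and 10.37. Heme mice 1 to 9 read 8.35, 9.75, 8.08, 7.54, 8.40, 9.62, 9.34, 9.32 and 9.84. All heme mice lay below all controls, and within each diet the mice spread over more than 2 log2 units. Ang4 fell by 2.29 (SE 0.50, 95% interval -3.35 to -1.24, adjusted p = 0.00119), a 4.90-fold lower signal, and ranked 27 from the most negative of 9257 tested genes. Of all tested genes 2.54% had a log2 difference of -1 or lower, and 5.61% one of 1 or more in size; Ang4 was the only one of the 10 genes, by the probe set that stands for it. The second probe set, 1440832_at, gave -2.14 (SE 0.51, adjusted p = 0.00273), also with no overlap. Leaving out each mouse in turn gave -2.52 to -1.82, the latter without control mouse 2 (adjusted p = 0.00121).

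Levels of smooth muscle markers were lower in heme mice, as were those of Ang4. With the mean of these markers as a covariate, the difference of Ang4 was -0.73 and not called (adjusted p = 0.327). Within controls, Ang4 rose with this mean (r = 0.95, n = 6), and r was 0.83 without the 2 mice farthest from the median of Ang4. Ang4 rose likewise with the stromal (r = 0.95, or 0.89 without those 2) and leukocyte marker means (r = 0.94, or 0.56). Its r with the distal Hox mean was 0.46. Retnlb in controls also followed the smooth muscle (r = 0.87), stromal (r = 0.93) and leukocyte (r = 0.905) means. Without its 2 farthest mice these were -0.13, 0.69 and 0.11. Within heme mice r of Ang4 with the smooth muscle mean was 0.21 (n = 9), and -0.68 without the 2 farthest. With the stromal and leukocyte means it was 0.42 and 0.60 there. None of these relations passed after adjustment over 106 relations. Control mouse 4 had a smooth muscle mean of 5.86, inside the heme range of 4.52 to 6.36. Its Ang4 was 10.09, above the highest heme mouse at 9.84, and this is also the mouse with the low distal Hox genes. Whether smooth muscle content accounts for the lower Ang4 was not tested. Calls of Clca1 (-0.10, adjusted p = 0.483), Spdef (-0.33, adjusted p = 0.0713) and Tff3 (-0.20, adjusted p = 0.103) were lost with the same covariate, while Muc2 (-0.24, adjusted p = 0.0105) and Fcgbp (-0.41, adjusted p = 0.0134) stayed called. In the same fit Retnlb was higher by 1.86 (adjusted p = 0.00354), more than without the covariate (0.89), and Spink4 was called higher by 0.40 (adjusted p = 0.0378). Since 5 of 6 control values of the covariate lie above all heme values, it overlaps with diet.

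Retnlb, which encodes RELM-beta, a secreted protein that acts on bacteria, was the gene of the 10 that rose. Controls 1, 2, 3, 4, 6 and 7 read 10.26, 12.68, 10.43, 10.23, 11.21 and 9.76. Heme mice 1 to 9 read 11.00, 11.69, 11.45, 11.78, 11.33, 11.55, 11.86, 12.15 and 12.06. Control mouse 2 was above every heme mouse, and 8 of 9 heme mice were above the other 5 controls. Retnlb was higher by 0.89 (SE 0.34, 95% interval 0.16 to 1.62, adjusted p = 0.0381), a 1.85-fold higher signal. This call lay near the threshold and was easily lost. Leaving out any of controls 1, 3, 4 and 7, or any of heme mice 2, 4, 7, 8 and 9, took it over the threshold (adjusted p up to 0.104, differences down to 0.69). In all, 13 of 26 alternatives did so. Without control mouse 2 the difference was 1.27 (adjusted p = 0.000203).

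Ang4 and Retnlb thus moved apart, a pairing chosen after the values were seen and given as a description. Ang4 minus Retnlb, on the log2 scale of these 2 probe sets, was -0.14 to 0.90 in controls (0.45 ± 0.34, SD, n = 6) and -4.24 to -1.93 in heme mice (-2.73 ± 0.73, SD, n = 9). The diets did not overlap, and control mouse 2, high in each gene, had a difference inside the range of the controls. Within controls the correlation of the pair was r = 0.98 (exact two-sided permutation p = 0.00972, Benjamini-Hochberg 0.126, Spearman rho = 0.94 with exact p = 0.0167, Benjamini-Hochberg 0.228, n = 6), and without the 2 mice farthest from the median of Retnlb r was 0.45, so it rests on those mice. Within heme mice r was 0.48 (exact two-sided permutation p = 0.191, Benjamini-Hochberg 0.404, rho = 0.42 with exact p = 0.270, Benjamini-Hochberg 0.572, n = 9; r = 0.42 without the 2 farthest). None of 106 such relations passed after adjustment.

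**Figure D3:**
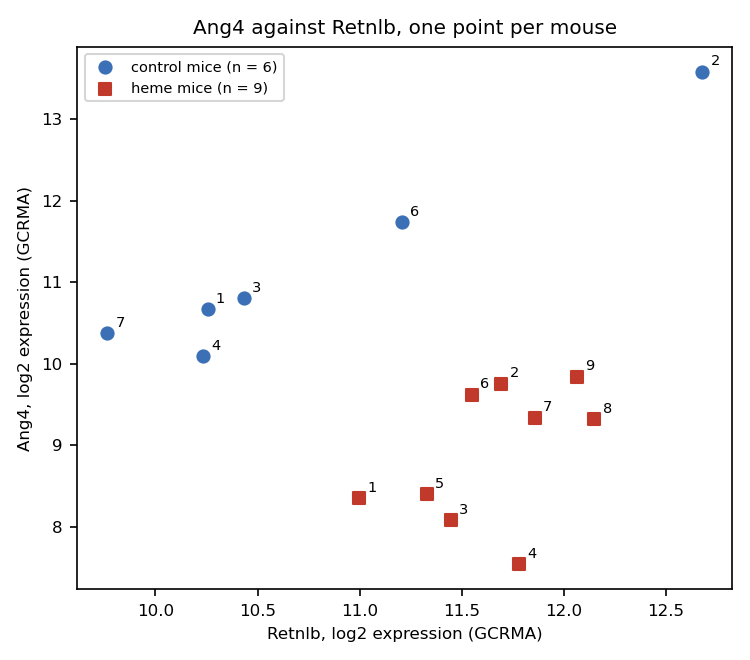
Ang4 (y axis, log2) against Retnlb (x axis, log2) in each control (blue) and heme mouse (red), numbered by mouse. Heme mice lie below the controls at 7.54 to 9.84 for Ang4, and control mouse 2 lies alone at the upper right (12.68 and 13.58).

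Counted over all pairs of the 10 genes, correlations across mice of the same diet were about as often positive as negative. Over the 45 pairs the median was 0.04 within controls, with 23 of 45 positive, and 0.15 within heme mice, with 27 of 45 positive. Among Muc2, Tff3, Clca1, Fcgbp, Zg16 and Ang4, grouped after the values were seen, every pair was positive within heme mice (r = 0.47 to 0.89). Fcgbp with Zg16 went there from 0.63 to 0.04 without the 2 mice farthest from the median of Fcgbp. Some signs turned within controls, as for Muc2 with Fcgbp, from -0.66 to 0.96 without the 2 farthest. No pair passed after adjustment. In a description over 15 mice, after the group means were taken off, the genes whose deviations were most like those of Muc2 were Hnrnph3 (r = 0.87), Guca2a (r = 0.87), Tbcel (r = 0.85), Wee1 (r = 0.83) and Glce (r = 0.83). They were picked as the highest among 9257 tested genes, and how high chance alone would reach was not tested. Guca2a, the prohormone guanylin of colon epithelium, had a log2 difference of -0.08 (adjusted p = 0.342). Those most like Ang4, a list picked in the same way and added after its values were seen, were H2-Aa (r = 0.85), Cd74 (r = 0.85), Jchain (r = 0.85), H2-Eb1 (r = 0.84) and Igkv8-30 (r = 0.84). These are genes of antigen presentation and of antibody-secreting cells, and Ang4 shares with them the 15 arrays, among them control mouse 2.

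Of 14 listed paralogs of Ang4, Retnlb and Clca1, 11 had a probe set and 6 were tested, of which 2 rose and 1 fell. These shares are near those of all tested genes, 27.2% higher and 26.4% lower. Ang, which encodes angiogenin, went from 11.06 ± 0.14 (SD, n = 6) to 9.88 ± 0.23 (SD, n = 9), a log2 difference of -1.18 (SE 0.10, adjusted p = 2.91e-07), with all 9 heme mice below all controls. The chloride channel accessory genes Clca4a (1.42, SE 0.16, adjusted p = 3.78e-06) and Clca4b (2.51, SE 0.42, adjusted p = 0.000142) rose, each with all 9 heme mice above all controls. Clca3a1 (0.05), Clca3a2 (0.10) and Clca3b (0.21) were not called. Ang2, Ang3, Retn, Retnla and Clca2 lay under the floor on all 15 arrays. Probe sets named _x_at or _s_at, as for Ang4 and Ang, can bind transcripts of related genes, and whether they did was not tested.

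Most regulators of the goblet lineage were lower in heme mice. Of 13 tested, 10 fell and 0 rose, beside 26.4% and 27.2% of all tested genes, and their median log2 difference was -0.33 beside -0.01. The median was -1.34 for the 8 enteroendocrine genes tested and -1.21 for the 3 tuft cell genes tested. Elf3, among the 13, was also listed as a general epithelial marker. The largest falls were those of Ern2, the endoplasmic reticulum stress sensor of mucus-secreting cells, of Sox9, a transcription factor of crypt progenitor and secretory cells, and of Creb3l4, a membrane-bound transcription factor. Ern2 differed by -0.72 (SE 0.09, adjusted p = 1.45e-05), and all 9 heme mice (8.98 to 9.47) lay below all 6 controls (9.72 to 10.22). Sox9 differed by -0.71 (SE 0.13, adjusted p = 0.000334), with 8 of 9 heme mice below all controls. Creb3l4 differed by -0.69 (SE 0.20, adjusted p = 0.0085), but only 1 heme mouse lay below all controls, since control mouse 2 was at 7.68. The other 7 fell by 0.29 to 0.68, and 3 of them, named after their values were seen, had all 9 heme mice below all controls: Atoh1, the factor that opens the secretory fate (-0.36), Foxa1 (-0.36) and Foxa3 (-0.30). The calls of Gfi1 (-0.33) and Elf3 (-0.29) are less firm, held in 21 and 19 of 26 alternatives. That of Gfi1 was lost without control mouse 1, 6 or 7 (adjusted p up to 0.0698), and that of Elf3 when control mouse 1 or 2 was left out (adjusted p up to 0.0743). Klf4 (0.08, adjusted p = 0.274), Foxa2 (-0.19, adjusted p = 0.508) and Bhlha15 (0.34, adjusted p = 0.0801) were not called. With the smooth muscle covariate 3 of the 13 were lower and 2 higher. Sox9 was then not called (-0.46, adjusted p = 0.0628).

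Other genes known from goblet cells gave a like picture. Of 20 listed, 19 had a probe set and 13 were tested, of which 8 fell and 0 rose, beside 26.4% and 27.2% of all tested genes, with a median log2 difference of -0.28. Mptx1, a mucosal pentraxin, was 10.93 to 14.71 in controls and 9.73 to 12.33 in heme mice, with 2 heme mice below all controls. Its difference was -1.92 (SE 0.48, adjusted p = 0.00353), and it was -0.82 beside the smooth muscle mean as a covariate (adjusted p = 0.347). Tpsg1, a tryptase, differed by -0.93 (SE 0.13, adjusted p = 2.55e-05), with 8 of 9 heme mice below all controls. Lrrc26, an accessory subunit of a potassium channel, differed by -0.75 (SE 0.09, adjusted p = 4.53e-06), with no overlap. The other 5 that fell differed by -0.32 to -0.25. Among these the calls of Rep15 (-0.25) and Fer1l6 (-0.25) held in 15 and 14 of 26 alternatives. Rep15 was not called without control mouse 2, 3, 6 or 7, nor without heme mouse 3, 7 or 9 (adjusted p up to 0.0861). For Fer1l6 this was so of controls 4, 6 and 7 and of heme mice 3, 4, 5 and 8 (adjusted p up to 0.107). The 5 not called were Reg4, Capn9, Bcas1, Galnt12 and Best2, from -0.46 to 0.12. The other 6 with a probe set lay under the floor on all 15 arrays, among them Tff1, Tff2, Muc5ac and Muc5b, mucins and peptides best known from stomach and airways.

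**Figure D4:**
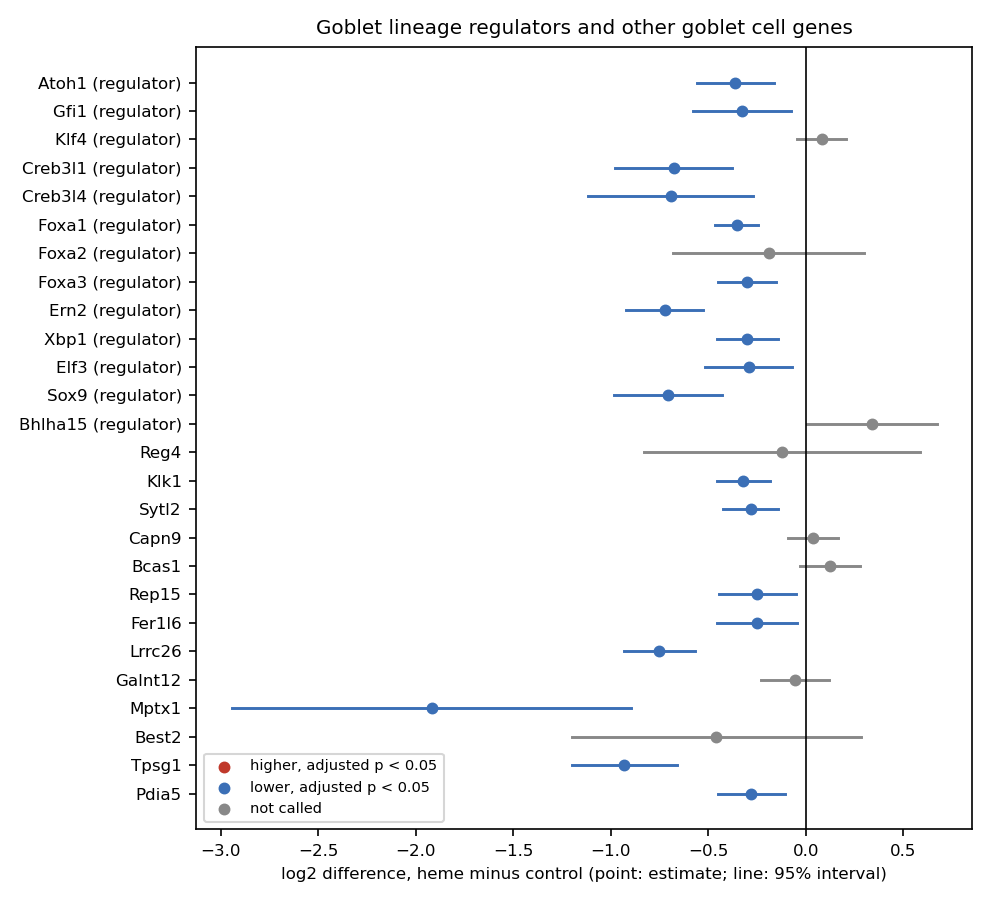
Log2 difference, heme minus control, with 95% intervals for the 13 goblet lineage regulators and the 13 other goblet cell genes tested. At an adjusted p under 0.05, 10 regulators and 8 other genes are lower (blue) and 0 are higher, and the lowest point is Mptx1 at -1.92.

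Membrane-bound mucins, made by the absorptive cells as well, were tested for 3 of 8 listed. Muc3 (-0.31, adjusted p = 0.000261) and Muc13 (-0.32, adjusted p = 0.000272) fell, and Muc4 did not pass (0.20, adjusted p = 0.0655). A list of 9 genes held those of type 2 immune signals and their receptors, and Il22ra1, an IL-22 receptor gene. Of these, Il4, Il13, Il25, Il33 and Il13ra2 lay under the floor on all 15 arrays. Of the 4 tested, Il22ra1 (-0.44), Il13ra1 (-0.40) and Stat6 (-0.36) fell, though the call of Il13ra1 was lost beside the smooth muscle covariate (-0.34, adjusted p = 0.131), and Il4ra was not called (-0.13, adjusted p = 0.301). Antimicrobial genes of Paneth-like cells were tested for 4 of 8, and Dmbt1 alone was called (-0.11, adjusted p = 0.0468), a call kept in 8 of 26 alternatives. Reg3g (1.17, SE 0.69, adjusted p = 0.167), Reg3b (0.33) and Lyz1 (-0.42) were not called, and their spread between mice was wide.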

How the data were processed

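The deposited values, taken as log2 from their range and because GCRMA usually gives log2, were computed by the authors with GCRMA 2.22.0, as the submitters' processing notes name it, a method that removes background by probe sequence and normalizes the arrays together. No other step is given in the sources used here. Symbols come from the array's annotation, which gives 1 symbol to 34958 of 45101 probe sets, several to 932 and lists no entry for 9211. The probe set with the highest mean stood for a gene. A gene was tested if its signal passed 20 on 6 or more arrays (9257 of 18194), by lmFit and eBayes of limma 3.58.1 (R 4.3.3) without covariates, with Benjamini-Hochberg adjustment over all tested genes and a threshold of 0.05. A second fit took all 15717 probe sets over the floor. Correlations within a diet were tested over all permutations of the mice in Python 3.11.15, with ranks from scipy 1.17.1. The fit was first tested on simulated data. Members, gene lists and alternatives were chosen with earlier results of these data known. Named were all members, at most the 3 largest called rises and falls of each list, paralogs over the floor, and the 5 genes most like Muc2; others were chosen after their values were seen. The alternatives were other floors, probe set rules, scalings, variance models, array weights, a replicate block, marker covariates and leaving out mice. Control mouse 5 was not analysed here. The number of arrays limits the precision.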

Additional observations from a re-analysis of the deposited data

Results flagged for a closer look

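In 7 of 100 groups of 6 or 9 mice examined, 1 mouse lay farther from the others than Dixon's 95% limit allows, where chance gives about 1 in 20, and 3 of the 7 were control mouse 2. For Fcgbp, control mouse 2 was at 13.52 and the other controls at 13.11 to 13.25. On the second Ang4 probe set, 1440832_at, control mouse 2 was at 12.42 and the other controls at 8.49 to 9.90. Tpsg1, by contrast, was lowest in control mouse 2, at 6.91 beside 7.56 to 7.94. Agr2 on 1419268_at reached 13.49 in heme mouse 8 (other heme mice 13.15 to 13.30). On 1455802_x_at Agr2 reached 12.45 in control mouse 3 (other controls 11.95 to 12.07). Atoh1 was at 10.83 in control mouse 1 beside 10.17 to 10.31 in the other controls. Best2 was at 6.03 in heme mouse 9 beside 6.66 to 7.23 in the other heme mice.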

How the results depend on the processing

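Limits come first from 15 mice, from control mouse 2, and from signals near the top of the scale. Of the 10 genes, 1 rose; the count was 0 with no signal filter, trend and robust variance, the replicate block or the distal Hox covariate, 2 with the smooth muscle covariate, and 0 to 1 leaving out each mouse. The 6 that fell were 2 with the smooth muscle covariate and 4 to 6 under all other alternatives. Probe sets that rose, 2, were 0 with no filter or the block and 0 to 2 leaving out each mouse. Regulators that rose, 0, were 1 with median centring, quantile normalization, array weights or without control mice 2 and 4 and heme mouse 6, 2 with the smooth muscle covariate, and 0 to 1 leaving out each mouse. The 10 that fell were 3 with the smooth muscle covariate. Other goblet genes that rose, 0, were 1 with the mean of probe sets. With the smooth muscle mean in the fit Spink4 turned from -0.00 to 0.40 (adjusted p = 0.0378). The causes were not tested. Same-numbered mice had correlations of -0.19 to 0.20 and only number 1 of 6 correlated best with its own. The labels do not say whether the numbers pair the mice. These correlations cannot decide it, since a pairing need not show in expression. With the replicate block Tff3 (-0.16, adjusted p = 0.107) and Retnlb (0.79, adjusted p = 0.11) were not called.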

Other observations

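Of 4 mast cell genes listed, Mcpt1 and Mcpt2, proteases of mucosal mast cells, passed the signal floor in heme mice alone, at low signal, while Mcpt4 (1.92 ± 0.16 in controls, 1.94 ± 0.20 in heme mice) and Cpa3 (2.11 ± 0.09 and 2.24 ± 0.20; SD, n = 6 and n = 9) lay under it on all 15 arrays. Mcpt1 was 2.62 to 3.35 in controls and 3.65 to 5.93 in heme mice, and Mcpt2 was 2.80 to 2.96 in controls and 3.47 to 5.06 in heme mice. For each gene all 6 controls lay under the floor of 4.32, 5 of 9 heme mice lay over it, and all 9 heme mice were above all controls. Against the floor the mean of the heme mice was at least 1.23-fold higher for Mcpt1 and at least 1.03-fold higher for Mcpt2. None of the 7 mast cell and eosinophil genes listed was over the floor on enough arrays to be tested. Siglecf, an eosinophil marker, was at 4.48 ± 0.67 (SD, n = 6) in controls and 3.26 ± 0.24 (SD, n = 9) in heme mice, where all lay under the floor, so that it was at least 1.11-fold lower. The other eosinophil genes listed, Prg2 and Epx, lay under the floor on all 15 arrays. Prg2 had means of 1.88 in controls and 2.00 in heme mice, and Epx of 1.94 and 1.90. Itln1, an intelectin of goblet and Paneth cells, lay over the floor in control mice 2 and 4 only.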
